A study of Homo sapiens with 30 samples.

Results

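In the LNCaP cells studied here, FOXA1 had been knocked down and wild-type FOXA1 supplied again. Some genes came back to near the control level, and others passed to the far side of the control. Others still differed from control in the direction of the knockdown, some of them by more than in the knockdown. The comparison set 3 libraries of shFoxA1 + WT cells against 3 libraries of pGIPZ control cells, and its members were all 12061 genes with a value of at least 1 RPKM (reads scaled by gene length and by the library's total) in at least 3 of those 6 libraries. The table held 26443 genes with values, so 14382 genes stayed below that minimum and were left out, among them 5763 that were not above 0 in any of the 6 libraries. Of the members, 117 passed with all 3 shFoxA1 + WT libraries and no control library at the minimum, and 87 passed with all 3 control libraries and no shFoxA1 + WT library. The minimum fixed the direction of both kinds, so such members of a list are numbered beside its counts, which they enter. At the edge of the minimum, MYL9 was kept with 1.00, 1.15 and 1.15 RPKM in shFoxA1 + WT cells and 0.747, 0.487 and 0.279 RPKM in control cells. KLK14 was left out with 0.99966, 0.504 and 1.18 RPKM in shFoxA1 + WT cells and 0.426, 1.18 and 0.638 RPKM in control cells, where 0.99966 RPKM was the third highest of the 6.

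LNCaP is a human cell line from prostate cancer that responds to androgen. Infection lasted to day 5, per the labels' protocols, whose range of sample codes leaves out the third shFoxA1 + K295A library, taken here by its title. The shFoxA1 + WT cells carried the shRNA against FOXA1 together with HA-tagged wild-type FOXA1, the shFoxA1 + K295A cells carried the same shRNA with HA-tagged FOXA1 in which a lysine is replaced by alanine, and the shFoxA1 cells carried the shRNA with a control construct. The pGIPZ control cells, named after the vector, carried a control shRNA and a control construct. A separate experiment with its own controls compared shFOXA1 cells with pLKO control cells, also at day 5 and also 3 libraries each. The series holds 30 libraries in 10 groups. The labels do not say whether the 3 libraries of a group came from separate cultures, so the p-values measure the spread between these libraries, which may be technical. The promoter that drives the supplied FOXA1, the number of clones and the FOXA1 protein level are not given here.

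FOXA1 is a forkhead transcription factor that binds closed chromatin and opens it for other factors. In prostate epithelium it acts at enhancers of androgen-induced genes such as KLK3, which encodes prostate-specific antigen. A rescue of this kind asks which changes of a knockdown are reversed when the protein is put back from another construct. The rescued cells also differ from the control cells in the shRNA and in the supplied construct, which the comparison cannot tell apart.

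RPKM sums were 279763 to 295915, and 11951 to 12000 genes reached 1 RPKM in shFoxA1 + WT libraries against 11851 to 11953 in control libraries. The table holds no read totals. Depth relative to the first control library, read from the steps between low values, was 0.847 to 1.30 in shFoxA1 + WT libraries and 1.00 to 1.23 in control libraries. Within a group, the values of any pair of libraries correlated across genes at 0.990 or more on the log2 scale. The 11 markers of LNCaP and prostate luminal cells were all above 1 RPKM, with sums of 2092 to 2149 RPKM in shFoxA1 + WT libraries and 2834 to 2884 RPKM in control libraries. The 24 markers of stromal, smooth muscle, immune, endothelial and basal cells summed to 19.6 to 22.0 RPKM in shFoxA1 + WT libraries and 26.6 to 28.6 RPKM in control libraries, and 19 of them in the first group and 17 in the second stayed under 1 RPKM in all 3 libraries. PDGFRA, a fibroblast marker, and PTPRC, the pan-leukocyte marker, were at 0 in all 6 libraries. Others of the 24 were present: COL1A1, ACTA2, CD68, VWF and KRT14 reached 1 RPKM in both groups, and LYZ and KRT15 in the control group only. CD68 was highest, with 9.47, 9.44 and 8.23 RPKM in shFoxA1 + WT cells and 14.3, 11.7 and 13.7 RPKM in control cells.

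FOXA1 RNA was above the control level in the rescued cells. It had 151, 152 and 152 RPKM in shFoxA1 + WT cells, 155, 149 and 150.0 RPKM in shFoxA1 + K295A cells and 83.1, 84.0 and 80.4 RPKM in shFoxA1 cells, against 131, 134 and 129.6 RPKM in control cells. The 4 groups did not overlap except WT and K295A, and shFoxA1 + WT exceeded control by 0.21 ± 0.024 on the log2 scale (± SE, limma adjusted p = 3.7e-05). The gene lies on chromosome 14, 37589984 to 37596059, minus strand (GRCh38, GENCODE 29, as for all gene positions here). A value per gene cannot separate RNA of the supplied FOXA1 from RNA of the cells' own gene, and these libraries do not measure protein. USP7, the deubiquitinase in the title of the series, had 23.3, 23.8 and 23.9 RPKM in shFoxA1 + WT cells against 19.2, 19.3 and 18.1 RPKM in control cells, a difference of 0.31 ± 0.035 on the log2 scale (limma adjusted p = 2.9e-05). BUB3, a spindle checkpoint protein, had 36.5, 37.6 and 36.0 RPKM in shFoxA1 + WT cells against 31.2, 32.0 and 33.0 RPKM in control cells (log2 difference 0.19 ± 0.046, limma adjusted p = 0.0053), and this call was lost under median-ratio scaling (limma adjusted p = 0.165). EZH2, the methyltransferase of polycomb complex 2, had 12.3, 12.3 and 12.5 RPKM in shFoxA1 + WT cells against 9.92, 9.72 and 9.68 RPKM in control cells. For EZH2, shFoxA1 + WT minus control was 0.31 ± 0.039 on the log2 scale (limma adjusted p = 5.1e-05).

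Of the 12061 genes, 5686 differed between shFoxA1 + WT and control cells at a limma adjusted p under 0.05, which is 47.1%. Of these, 4209 were higher (34.9% of genes tested) and 1477 lower (12.2%). The 3 libraries of one group and the 3 of the other did not overlap for 6597 genes (54.7%). Most differences were small: the median over all genes was 0.10 on the log2 scale, and 61 called genes were at least 2-fold higher and 104 at least 2-fold lower. The share of calls that were higher depended on the scaling, being 74% with the RPKM as deposited and 48.5% (2287 higher, 2429 lower) after median-ratio scaling between libraries, which shifts the median of all genes by -0.09 on the log2 scale; 3764 genes were called in the same direction both ways.

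The knockdown without added FOXA1 was called for 6037 genes against the same control libraries (50.1%), 2991 higher (24.8%) and 3046 lower (25.3%). Both comparisons use the same 3 control libraries, so the counts that join them are a description and carry no test. In the rescued cells, 2393 genes differed from control in the same direction as in the knockdown and are called not restored (1549 higher, 844 lower). The name rests on the direction of the calls alone, so it also covers genes that moved most of the way back. TLE1, a Groucho corepressor, is one, with 23.5% of its log2 change in the knockdown left. The class holds 96 of the 176 genes that rose at least 2-fold in shFoxA1 cells. Another 1045 genes were pushed past the control level, with opposite directions in knockdown and rescue (782 higher and 263 lower in the rescued cells). A further 2248 genes were called in the rescued cells only. Of the 100 genes not restored with at least a 2-fold difference in the rescued cells, 77 were lower and 23 higher, and of the 23 such genes past the control level, 17 were higher and 6 lower.

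**Figure D1:**
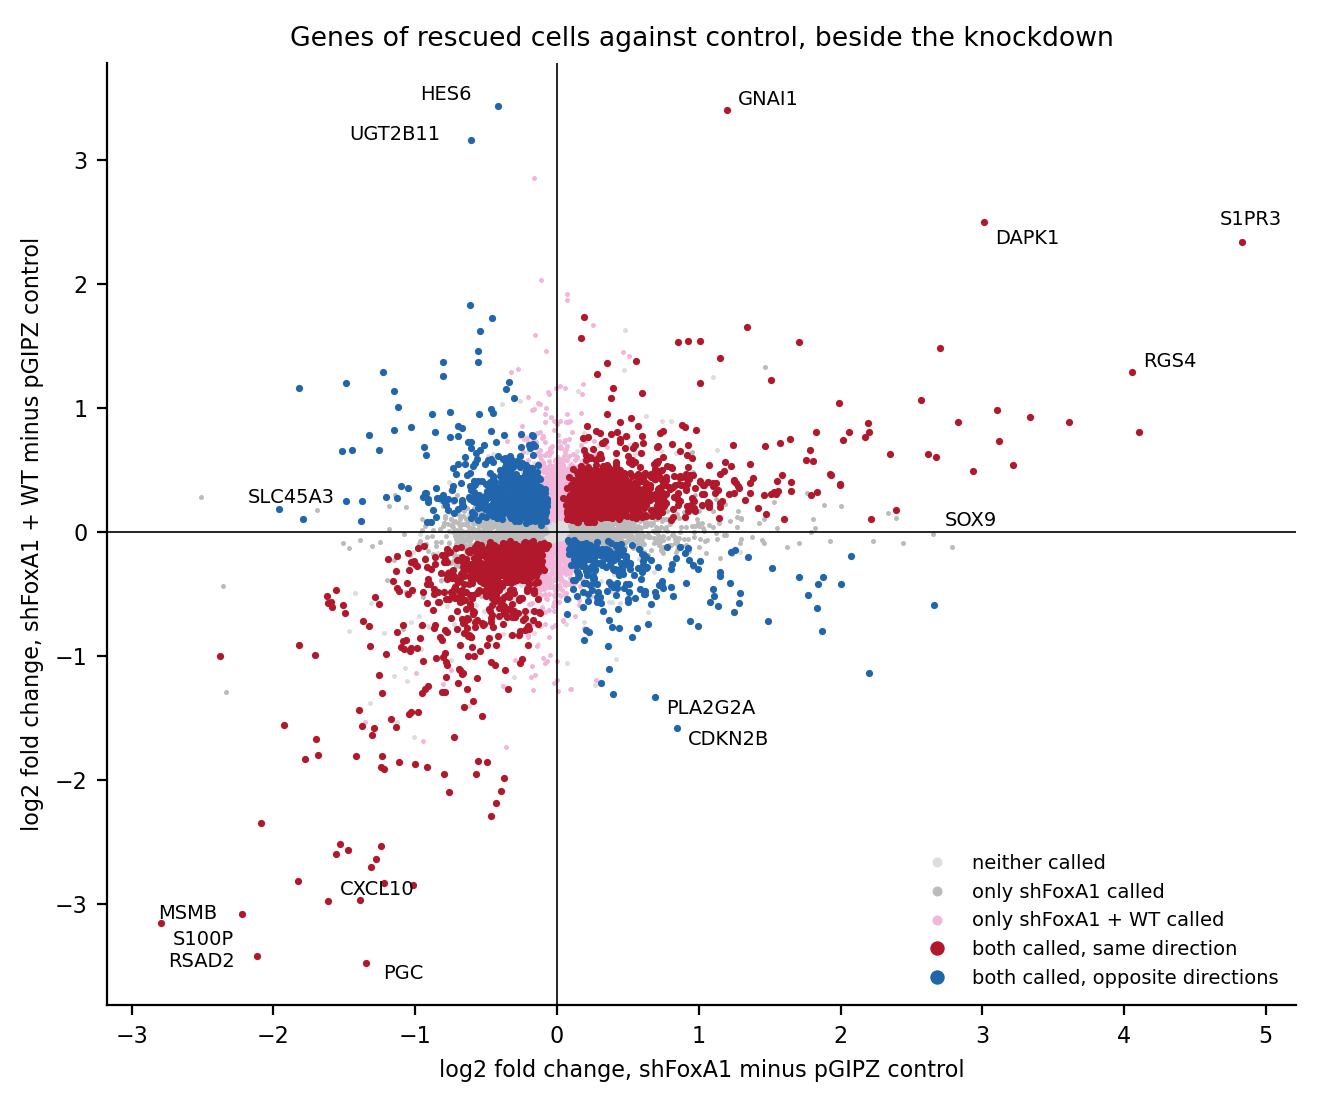
Each point is 1 of the 12061 genes, with the log2 fold change of shFoxA1 cells over pGIPZ control cells on the horizontal axis and that of shFoxA1 + WT cells over the same control on the vertical axis. Colours give the calls; HES6, GNAI1 and UGT2B11 lie at the top with values above 3, and PGC, RSAD2 and S100P lie below -3. The axes share the 3 control libraries, so no relation is read from the slope.

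A gene that changed 2-fold in the knockdown mostly moved back part of the way, and the share of the change left was smaller for those that had risen. Of 176 genes that rose at least 2-fold in shFoxA1 cells, 167 were lower in shFoxA1 + WT than in shFoxA1 cells at a limma adjusted p under 0.05 and 4 were higher still (18.3% lower and 37.9% higher among all genes tested). The median share of the log2 change left in the rescued cells was 18.8% (quartiles -3.07% and 31.5%), and 13 of the 176 were still at least 2-fold above control. Of 112 genes that fell at least 2-fold in shFoxA1 cells, 69 were called higher in shFoxA1 + WT than in shFoxA1 cells and 27 were lower still. The median share left was 43.3% (quartiles 5.78% and 108%), and 35 of the 112 remained at least 2-fold below control. These genes were chosen by their change against the same control libraries, so the shares are given without a test.

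The 8 lowest genes of the rescued cells included secreted products and interferon-induced genes. PGC, which encodes the secreted protease precursor pepsinogen C, had 3.26, 4.48 and 3.23 RPKM in shFoxA1 + WT cells, against 49.8, 50.9 and 50.3 RPKM in control cells. The groups were far apart, with a log2 fold change of -3.47 ± 0.11 (limma adjusted p = 3.9e-10), the lowest of the genes named by the rule. The knockdown stood between them, at 20.4, 18.5 and 18.7 RPKM, and the K295A cells at 3.56, 4.87 and 4.76 RPKM. PGC lies on chromosome 6, 41736711 to 41754109, minus strand. MSMB, which encodes beta-microseminoprotein, a major secretory product of the prostate, had 2.27, 2.35 and 1.95 RPKM in shFoxA1 + WT cells against 23.3, 26.3 and 28.4 RPKM in control cells. MSMB differed from control by -3.08 ± 0.12 on the log2 scale (limma adjusted p = 2.3e-09). S100P, a calcium-binding protein, had 30.2, 29.6 and 32.7 RPKM in shFoxA1 + WT cells against 264, 294 and 291 RPKM in control cells. For S100P, shFoxA1 + WT minus control was -3.16 ± 0.065 on the log2 scale (limma adjusted p = 1e-11). Both were also low in shFoxA1 cells, at 4.18, 5.30 and 4.85 RPKM for MSMB and 37.9, 40.8 and 41.2 RPKM for S100P, so neither moved back toward the control.

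RAET1L, a ligand of the natural killer cell receptor NKG2D, had 0.373, 0.658 and 0.687 RPKM in shFoxA1 + WT cells against 9.81, 10.9 and 9.79 RPKM in control cells. RAET1L differed from control by -2.83 ± 0.093 on the log2 scale (limma adjusted p = 7e-10). CCL5, a chemokine that attracts T cells, had 0.628, 0.885 and 0.551 RPKM in shFoxA1 + WT cells against 12.5, 12.6 and 11.3 RPKM in control cells. For CCL5, shFoxA1 + WT minus control was -2.97 ± 0.093 on the log2 scale (limma adjusted p = 4.5e-10). Both passed the minimum through the control libraries only, so they had to be lower in the other group. MIR3189 had 5.13, 4.34 and 1.89 RPKM in shFoxA1 + WT cells against 26.9, 34.9 and 34.3 RPKM in control cells. Its hairpin, on chromosome 19, 18386562 to 18386634, plus strand, lies inside GDF15, a stress-induced growth factor gene with 858, 846 and 852 RPKM in shFoxA1 + WT cells against 2534, 2457 and 2523 RPKM in control cells (log2 fold change -1.55 ± 0.017, limma adjusted p = 3.5e-14), and reads of the hairpin and of its host cannot be told apart here.

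The highest gene was HES6, a basic helix-loop-helix factor of the HES family known from neuronal differentiation. It had 661, 673 and 698 RPKM in shFoxA1 + WT cells, 583, 603 and 570.0 RPKM in shFoxA1 + K295A cells and 47.7, 45.7 and 44.6 RPKM in shFoxA1 cells, against 64.6, 61.2 and 59.3 RPKM in control cells. Both rescued groups lay far above the control and the knockdown just below it, and the mean of shFoxA1 + WT was 10.98 times that of control. HES6 differed from control by 3.44 ± 0.036 on the log2 scale (limma adjusted p = 3.5e-14). HES6 lies on chromosome 2, 238238267 to 238240662, minus strand. GNAI1, an inhibitory G protein alpha subunit, had 33.6, 33.5 and 33.7 RPKM in shFoxA1 + WT cells against 2.31, 2.10 and 2.46 RPKM in control cells (log2 fold change 3.40 ± 0.047, limma adjusted p = 3.3e-13), and shFoxA1 cells had 6.43, 6.64 and 6.56 RPKM. RET, a receptor tyrosine kinase for ligands of the GDNF family, had 2.97, 2.62 and 3.31 RPKM in shFoxA1 + WT cells against 0.0419, 0.0342 and 0.0653 RPKM in control cells. For RET, shFoxA1 + WT minus control was 1.92 ± 0.089 on the log2 scale (limma adjusted p = 1.3e-08). It passed the minimum through shFoxA1 + WT libraries only, and the pseudocount of 1 understates folds at such low values.

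**Figure D2:**
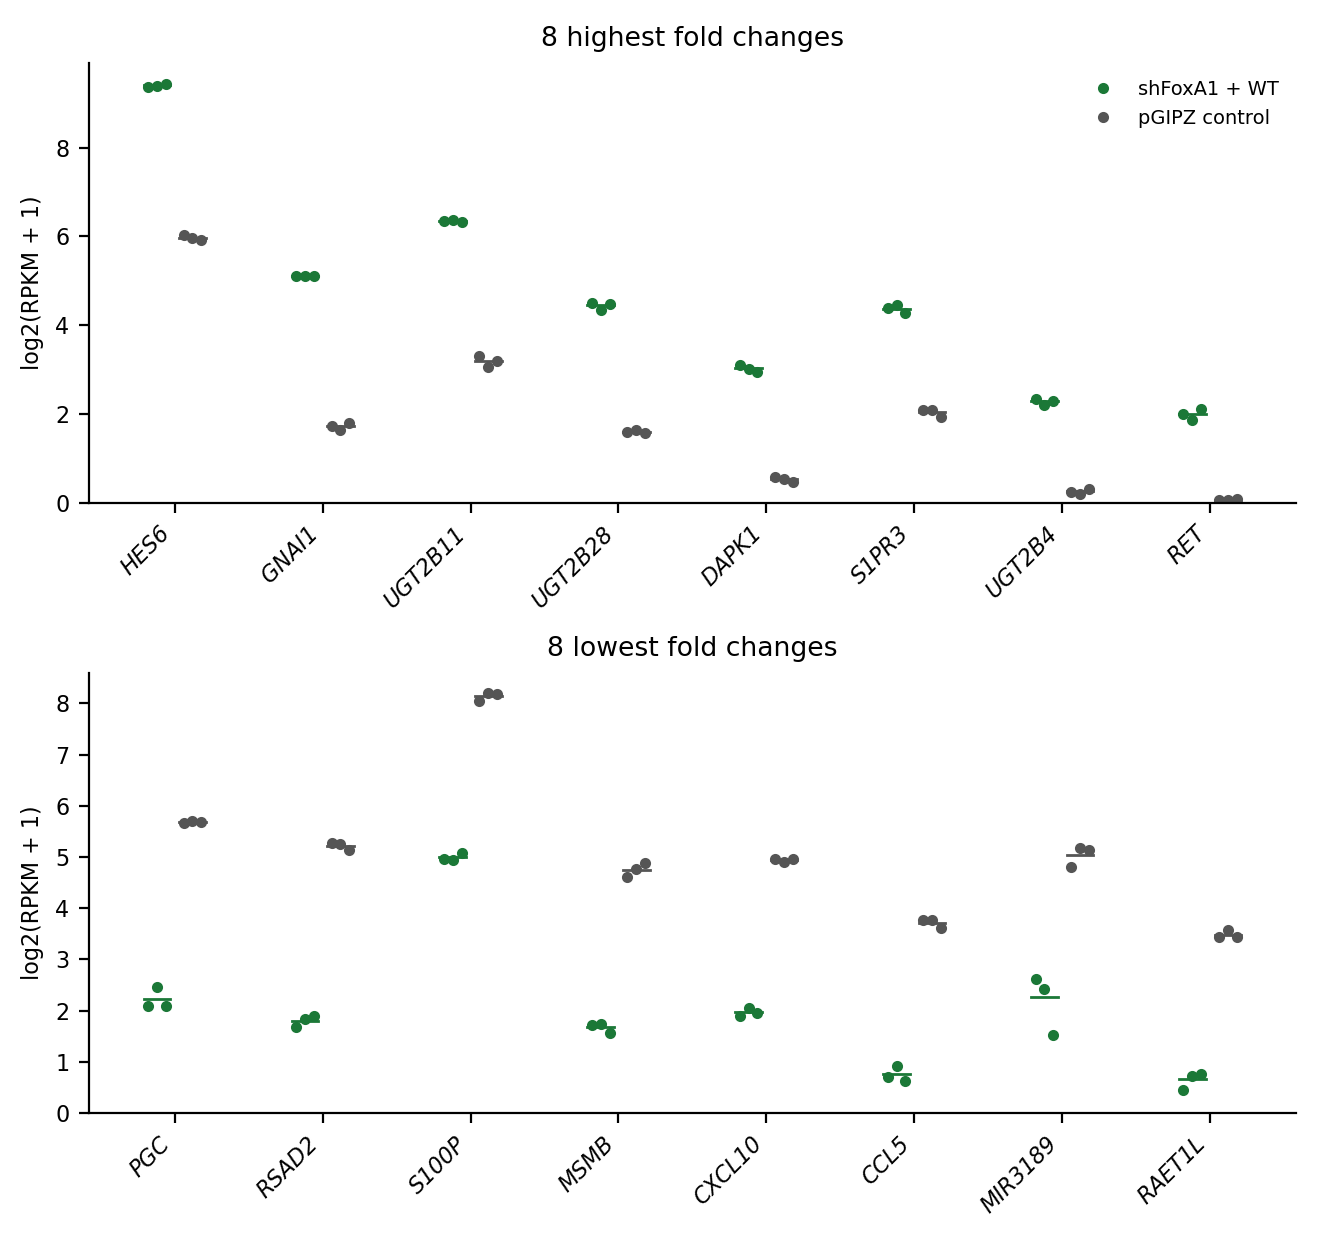
Values of the 8 genes with the highest (top) and the 8 with the lowest (bottom) fold change, as log2(RPKM + 1) in each library of shFoxA1 + WT (green, left of each pair) and pGIPZ control (grey, right), with a line at the log2 of each group's mean plus 1. The 3 libraries of each group sit close together compared with the gap between groups, with the widest spread in MIR3189, at 5.13, 4.34 and 1.89 RPKM in shFoxA1 + WT cells.

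Most interferon-induced genes were lower in the rescued cells. Interferons activate factors, STAT2 and IRF9 among them, that bind the interferon-stimulated response element in promoters and switch on antiviral genes such as the IFIT and OAS families. Of 52 tested members of the list of interferon-induced genes, 49 were lower in shFoxA1 + WT than in control cells and 1 was higher, against 12.2% lower among all genes tested, and 28 were at least 2-fold lower. The median was -1.13 on the log2 scale, against 0.10 over all genes. Of the 52, 6 passed the minimum through 1 group only. The count was the same with median-ratio scaling (49 lower, 0 higher).

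Promoter stretches of 5 of these genes are shown because they hold the letters that the interferon-activated factors recognise. They are RefSeq sequences (GRCh38.p14) on the strand of the gene, from 250 bases before to 50 after the annotated start, cut to the part around the match. Capitals mark matches to TTTCNNTTTC on either strand. RSAD2 is chr2:6877592-6877681 (plus strand), IFIT1 is chr10:89392467-89392569 (plus), ISG15 is chr1:1013344-1013439 (plus), BST2 is chr19:17405705-17405800 (minus) and CXCL10 is chr4:76023669-76023747 (minus).
RSAD2: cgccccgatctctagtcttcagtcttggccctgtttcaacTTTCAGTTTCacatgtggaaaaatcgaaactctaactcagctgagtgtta
IFIT1: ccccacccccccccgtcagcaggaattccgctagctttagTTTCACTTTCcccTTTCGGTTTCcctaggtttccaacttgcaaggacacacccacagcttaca
ISG15: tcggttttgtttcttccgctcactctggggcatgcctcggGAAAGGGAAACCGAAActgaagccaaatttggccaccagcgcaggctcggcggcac
BST2: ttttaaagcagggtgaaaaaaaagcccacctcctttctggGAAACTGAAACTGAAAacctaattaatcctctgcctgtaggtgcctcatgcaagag
CXCL10: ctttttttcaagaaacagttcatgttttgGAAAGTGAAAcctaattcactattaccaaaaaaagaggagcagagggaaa

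The match stood within the 250 bases before the start in each, for example 145 bases before it in RSAD2, and IFIT1 held a pair of matches 3 bases apart. Of the 49 interferon-induced genes that were lower, 37 had a promoter in the table and 27 of these held the motif (73.0%), against 3.57% of all 35116 promoter windows and 3.74% of the 8884 matched among genes tested. The list was chosen as known interferon-induced genes and 49 of its 52 tested members were lower, so this share describes the list. Among genes at least 2-fold lower in shFoxA1 + WT cells, 22 of 67 matched promoters held it (32.8%), and among genes at least 2-fold higher 5 of 36 (13.9%). Of the 104 genes at least 2-fold lower, 28 are members of the list, so the 32.8% is not separate from it. The forkhead motif TGTTTAC, which no match to the first motif can contain, was in 3.42% of all windows, in 4 of 67 promoters of the lower genes (5.97%) and in 4 of 36 of the higher genes (11.1%). A match of letters is a description of the window and not evidence that a factor bound there.

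RSAD2, which encodes the antiviral protein viperin, had 2.22, 2.55 and 2.71 RPKM in shFoxA1 + WT cells, 3.45, 3.43 and 4.01 RPKM in shFoxA1 + K295A cells and 7.70, 8.24 and 6.97 RPKM in shFoxA1 cells, against 37.5, 37.4 and 34.2 RPKM in control cells. The rescued cells were lowest and the knockdown stood between them and the control, with no overlap between WT and control. RSAD2 differed from control by -3.42 ± 0.075 on the log2 scale (limma adjusted p = 1.7e-11). CXCL10, an interferon-induced chemokine, had 2.71, 3.12 and 2.89 RPKM in shFoxA1 + WT cells and 9.04, 8.85 and 9.27 RPKM in shFoxA1 cells, against 30.3, 28.8 and 30.2 RPKM in control cells. For CXCL10, shFoxA1 + WT minus control was -2.98 ± 0.057 on the log2 scale (limma adjusted p = 5.1e-12). IFIT2, whose product binds viral RNA, had 8.33, 7.04 and 8.08 RPKM in shFoxA1 + WT cells and 16.1, 16.3 and 17.2 RPKM in shFoxA1 cells, against 64.7, 60.5 and 58.1 RPKM in control cells. IFIT2 differed from control by -2.82 ± 0.065 on the log2 scale (limma adjusted p = 2.5e-11). The same order of rescue, knockdown and control held for the next genes. IFIT1 had 3.18, 3.24 and 3.13 RPKM in shFoxA1 + WT cells and 9.37, 9.37 and 8.88 RPKM in shFoxA1 cells, against 22.7, 23.7 and 23.0 RPKM in control cells. ISG15, a ubiquitin-like modifier and the most abundant of the 5, had 166, 166 and 159 RPKM in shFoxA1 + WT cells and 254, 273 and 269 RPKM in shFoxA1 cells, against 658, 593 and 605 RPKM in control cells. BST2, which tethers virus particles to the cell surface, had 2.57, 2.17 and 4.39 RPKM in shFoxA1 + WT cells and 6.73, 7.42 and 8.10 RPKM in shFoxA1 cells, against 22.9, 20.9 and 23.2 RPKM in control cells. In each, all 3 rescued libraries were below all 3 knockdown libraries and these below all 3 control libraries.

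Among the factors that carry the interferon signal, IRF9 differed from control by about as much as the median of the list. IRF9 had 7.89, 6.66 and 7.79 RPKM in shFoxA1 + WT cells against 15.0, 19.0 and 18.0 RPKM in control cells (log2 fold change -1.11 ± 0.081, limma adjusted p = 6.6e-07), and IRF7, which amplifies the response, 5.81, 5.33 and 5.57 RPKM in shFoxA1 + WT cells against 9.60, 9.54 and 10.2 RPKM in control cells. IRF7 differed from control by -0.71 ± 0.06 on the log2 scale (limma adjusted p = 2.3e-06). Genes of antigen presentation in the list were lower too. B2M, the light chain of MHC class I, had 99.2, 99.1 and 102 RPKM in shFoxA1 + WT cells and 127, 127 and 129.5 RPKM in shFoxA1 cells, against 266, 243 and 238 RPKM in control cells. For B2M, shFoxA1 + WT minus control was -1.30 ± 0.036 on the log2 scale (limma adjusted p = 1.6e-10). HLA-B, a class I heavy chain whose reads may be shared with close paralogs, had 13.4, 14.2 and 13.5 RPKM in shFoxA1 + WT cells against 27.9, 27.5 and 28.7 RPKM in control cells. HLA-B differed from control by -0.98 ± 0.04 on the log2 scale (limma adjusted p = 4.7e-09). The one higher member was IFITM2, at 0.23 ± 0.049 on the log2 scale (limma adjusted p = 0.0021), which was no longer called after median-ratio scaling. MX1, a standard antiviral gene, was not called, with 1.06, 1.53 and 0.978 RPKM in shFoxA1 + WT cells and 0.904, 1.02 and 1.10 RPKM in control cells.

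In the other comparisons with the same control, 48 of the 52 were lower and 0 higher in shFoxA1 + K295A cells (limma, median -0.92), against 13.2% lower among all genes, and 42 were lower and 1 higher in shFoxA1 cells (median -0.59), against 25.3% lower among all genes. Directly between the rescue and the knockdown, 42 were lower and 3 higher in shFoxA1 + WT than in shFoxA1 cells (median -0.50), against 18.3% lower among all genes. In the separate knockdown, of 41 members tested in shFOXA1 against pLKO control, a comparison with 45.1% of all genes lower and 25.2% higher, 10 were lower and 15 higher, with a median of 0.12. The FPKM and RPKM tables were made separately, so levels across them are set side by side without a test. RSAD2 averaged 0.0877 FPKM in pLKO control cells beside 36.4 RPKM in pGIPZ control cells, and IFIT2 0.509 FPKM beside 61.1 RPKM. Whether the pGIPZ control cells or the rescued cells stand apart in interferon-induced genes was not tested.

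**Figure D3:**
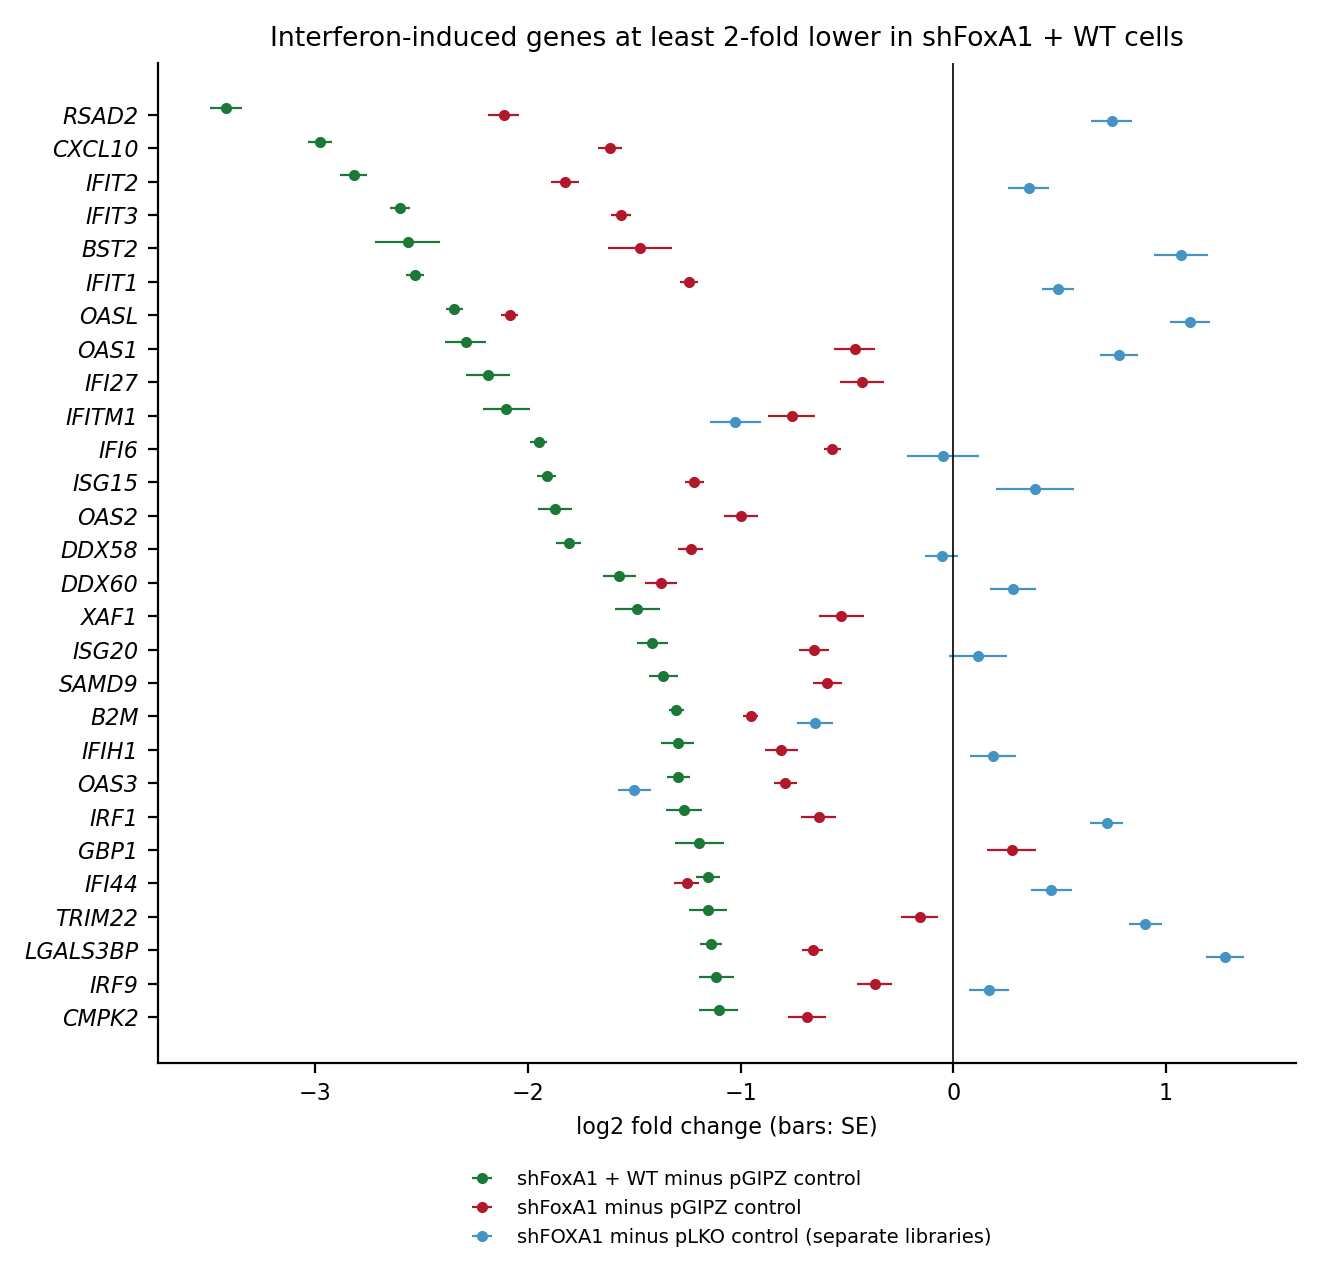
Log2 fold changes (points, with SE as bars) of the 28 interferon-induced genes at least 2-fold lower in shFoxA1 + WT than in pGIPZ control cells (green), with the same genes in shFoxA1 over pGIPZ control (red) and in shFOXA1 over pLKO control, from separate libraries (blue). Green points lie between -1.10 and -3.42, and blue points are missing for CXCL10, IFIT3, IFI27, OAS2, XAF1, SAMD9, GBP1 and CMPK2, which did not reach the minimum there.

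Inflammatory genes were lower as well. NF-kB factors drive genes of inflammation and survival and induce their own inhibitors. Of 16 tested members of the inflammatory and NF-kB list, 13 were lower and 0 higher in shFoxA1 + WT than in control cells (6 at least 2-fold, median -0.57). Among all genes tested, 12.2% were lower and 34.9% higher. In shFoxA1 cells, 9 of the 16 were higher and 4 lower than in control cells, against 24.8% higher and 25.3% lower among all genes. BIRC3, an inhibitor of apoptosis induced by NF-kB, had 1.35, 1.36 and 1.45 RPKM in shFoxA1 + WT cells and 4.34, 4.17 and 4.49 RPKM in shFoxA1 cells, against 8.05, 8.33 and 8.44 RPKM in control cells. For BIRC3, shFoxA1 + WT minus control was -1.96 ± 0.056 on the log2 scale (limma adjusted p = 2.1e-10). TNFAIP3, the feedback inhibitor A20, had 1.11, 1.38 and 1.64 RPKM in shFoxA1 + WT cells and 4.54, 4.19 and 4.53 RPKM in shFoxA1 cells, against 4.28, 4.43 and 4.83 RPKM in control cells. TNFAIP3 differed from control by -1.22 ± 0.091 on the log2 scale (limma adjusted p = 8.7e-07). For TNFAIP3 the knockdown and control libraries overlapped and only the rescued libraries were apart.

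Of 27 tested immediate early and MAPK feedback genes, 15 were lower and 6 higher (median -0.32, and 16 lower and 3 higher after median-ratio scaling), and 3 passed the minimum through 1 group only. Over all genes tested, 12.2% were lower and 34.9% higher. KLF4, a zinc finger factor, had 5.94, 6.19 and 6.29 RPKM in shFoxA1 + WT cells against 24.4, 24.4 and 25.4 RPKM in control cells. For KLF4, shFoxA1 + WT minus control was -1.85 ± 0.05 on the log2 scale (limma adjusted p = 1.1e-10). The phosphatase DUSP5 had 0.799, 0.835 and 0.626 RPKM in shFoxA1 + WT cells against 5.62, 5.94 and 6.28 RPKM in control cells (log2 fold change -1.99 ± 0.083, limma adjusted p = 5.8e-09). It passed the minimum through control libraries only, so it had to be lower. DUSP4, a related phosphatase, had 19.7, 19.3 and 19.8 RPKM in shFoxA1 + WT cells against 6.70, 7.12 and 5.81 RPKM in control cells. DUSP4 differed from control by 1.45 ± 0.065 on the log2 scale (limma adjusted p = 1.1e-08).

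Among genes higher than control in both the knockdown and the rescued cells, DAPK1, a calcium- and calmodulin-regulated kinase linked to cell death, had 7.62, 7.11 and 6.65 RPKM in shFoxA1 + WT cells and 10.7, 10.6 and 10.5 RPKM in shFoxA1 cells, against 0.484, 0.453 and 0.373 RPKM in control cells. It was lower in the rescue than in the knockdown (log2 difference of WT minus knockdown -0.51 ± 0.066, limma adjusted p = 3.8e-05), and it stayed 2.50 ± 0.066 above control on the log2 scale (limma adjusted p = 1e-10). In the separate experiment DAPK1 was 2.46 ± 0.064 higher in shFOXA1 than in pLKO control cells on the log2 scale (limma adjusted p = 6.2e-11). DAPK1 passed the minimum through shFoxA1 + WT libraries only. S1PR3, a receptor for sphingosine 1-phosphate, had 19.9, 20.9 and 18.5 RPKM in shFoxA1 + WT cells and 114, 116 and 118 RPKM in shFoxA1 cells, against 3.28, 3.25 and 2.80 RPKM in control cells. Of its log2 change in the knockdown, 48.3% was left in the rescued cells. UNC5B, a netrin receptor, had 4.72, 4.29 and 4.65 RPKM in shFoxA1 + WT cells and 3.71, 3.28 and 3.43 RPKM in shFoxA1 cells, against 0.714, 0.709 and 0.885 RPKM in control cells, so it was highest in the rescued cells. For UNC5B, shFoxA1 + WT minus control was 1.65 ± 0.069 on the log2 scale (limma adjusted p = 6.2e-09). Like DAPK1 it passed the minimum through shFoxA1 + WT libraries only, so it had to be higher than control. PPM1A, a protein phosphatase, had 21.7, 22.9 and 22.1 RPKM in shFoxA1 + WT cells and 6.82, 7.06 and 6.98 RPKM in shFoxA1 cells, against 6.43, 5.53 and 6.03 RPKM in control cells. PPM1A differed from control by 1.73 ± 0.047 on the log2 scale (limma adjusted p = 1.1e-10). For PPM1A, and for GNAI1 among the highest genes, the rescued libraries lay far above those of both other groups.

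Genes pushed above the control level were led by HES6 and by enzymes of the UGT2B family, which attach glucuronic acid to steroids and other substrates. Among these, UGT2B15 and UGT2B17 inactivate androgens. UGT2B11 had 80.6, 81.6 and 79.3 RPKM in shFoxA1 + WT cells and 5.03, 4.94 and 4.99 RPKM in shFoxA1 cells, against 8.95, 7.38 and 8.07 RPKM in control cells. For UGT2B11, shFoxA1 + WT minus control was 3.16 ± 0.051 on the log2 scale (limma adjusted p = 1.6e-12). UGT2B15 had 23.9, 23.5 and 25.7 RPKM in shFoxA1 + WT cells and 4.45, 4.43 and 4.93 RPKM in shFoxA1 cells, against 6.59, 6.79 and 6.64 RPKM in control cells. UGT2B15 differed from control by 1.72 ± 0.052 on the log2 scale (limma adjusted p = 3.5e-10). UGT2B17 had 17.9, 18.6 and 17.7 RPKM in shFoxA1 + WT cells and 5.86, 5.21 and 5.60 RPKM in shFoxA1 cells, against 11.9, 11.7 and 10.7 RPKM in control cells. For UGT2B17, shFoxA1 + WT minus control was 0.62 ± 0.05 on the log2 scale (limma adjusted p = 1.7e-06). In all 3 genes the knockdown libraries lay below and the rescued libraries above every control library. UGT2B28 had 21.7, 19.3 and 21.4 RPKM in shFoxA1 + WT cells against 2.00, 2.11 and 1.96 RPKM in control cells (log2 fold change 2.85 ± 0.11, limma adjusted p = 2.5e-09), with the knockdown not called. These genes lie together on chromosome 4 and are close paralogs, so reads may be shared between them and each value is uncertain. In the separate knockdown, UGT2B11 was -2.82 ± 0.064, UGT2B15 -3.94 ± 0.055, UGT2B17 -4.47 ± 0.066 and UGT2B28 -2.65 ± 0.062 on the log2 scale, shFOXA1 minus pLKO control, all called.

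PTGFR, the receptor for prostaglandin F, had 11.3, 10.3 and 10.0 RPKM in shFoxA1 + WT cells and 1.03, 1.07 and 1.24 RPKM in shFoxA1 cells, against 2.04, 2.33 and 2.35 RPKM in control cells. PTGFR differed from control by 1.83 ± 0.065 on the log2 scale (limma adjusted p = 1.4e-09). ZPLD1, a zona pellucida-like domain protein, had 5.69, 4.99 and 5.90 RPKM in shFoxA1 + WT cells and 0.343, 0.502 and 0.515 RPKM in shFoxA1 cells, against 1.01, 1.13 and 1.22 RPKM in control cells. For ZPLD1, shFoxA1 + WT minus control was 1.62 ± 0.084 on the log2 scale (limma adjusted p = 3.4e-08). In the separate experiment both were lower in shFOXA1 than in pLKO control cells, PTGFR at -1.87 ± 0.081 and ZPLD1 at -1.14 ± 0.11 on the log2 scale, both called. DDC, which makes dopamine and serotonin and serves as a neuroendocrine marker, had 34.8, 37.2 and 34.2 RPKM in shFoxA1 + WT cells and 3.62, 3.54 and 3.71 RPKM in shFoxA1 cells, against 14.8, 15.4 and 15.8 RPKM in control cells. DDC differed from control by 1.16 ± 0.043 on the log2 scale (limma adjusted p = 2.3e-09).

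The genes pushed below the control level had risen in the knockdown. CDKN2B, which encodes the cell cycle inhibitor p15, had 0.695, 0.530 and 0.778 RPKM in shFoxA1 + WT cells and 7.72, 8.21 and 7.93 RPKM in shFoxA1 cells, against 3.75, 4.24 and 3.98 RPKM in control cells. For CDKN2B, shFoxA1 + WT minus control was -1.58 ± 0.073 on the log2 scale (limma adjusted p = 1.3e-08). PLA2G2A, a secreted phospholipase, had 11.1, 10.0 and 9.87 RPKM in shFoxA1 + WT cells and 42.0, 49.0 and 44.6 RPKM in shFoxA1 cells, against 28.0, 25.9 and 28.7 RPKM in control cells. PLA2G2A differed from control by -1.33 ± 0.074 on the log2 scale (limma adjusted p = 6e-08). LCN2, which binds bacterial siderophores, had 2.00, 2.31 and 2.51 RPKM in shFoxA1 + WT cells and 33.0, 31.1 and 31.7 RPKM in shFoxA1 cells, against 6.52, 5.14 and 7.01 RPKM in control cells. For LCN2, shFoxA1 + WT minus control was -1.14 ± 0.11 on the log2 scale (limma adjusted p = 6.3e-06). In all 3 the rescued libraries were below every control library and the knockdown libraries above. NEURL3, a ubiquitin ligase, and ADAMTS1, a secreted metalloprotease, did the same, at -1.31 ± 0.08 and -1.22 ± 0.028 on the log2 scale, WT over control (limma adjusted p = 1.5e-07 and 2.7e-11). CDKN2B and NEURL3 passed the minimum through control libraries only. In the separate knockdown CDKN2B was 3.48 ± 0.085 and PLA2G2A 4.16 ± 0.13 higher in shFOXA1 than in pLKO control cells on the log2 scale, both called.

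Some genes did come back to the control level. A gene is called restored here where it changed at least 2-fold in shFoxA1 cells and the 95% interval of shFoxA1 + WT minus control lay within 0.32 of 0 on the log2 scale, and 57 of 288 genes met this (44 of the 176 that rose and 13 of the 112 that fell). Small differences remained detectable in 20 of them, 12 of the first kind and 8 of the second, which were called against control although their interval was inside the bound. These 20 are therefore also counted above as not restored or past the control level. SOX9, a transcription factor of prostate development, had 2.59, 2.84 and 2.17 RPKM in shFoxA1 + WT cells and 21.6, 22.1 and 20.8 RPKM in shFoxA1 cells, against 2.41, 2.80 and 2.53 RPKM in control cells. RTN1, a reticulon of the endoplasmic reticulum, had 3.80, 4.68 and 5.00 RPKM in shFoxA1 + WT cells and 40.0, 39.0 and 41.3 RPKM in shFoxA1 cells, against 5.32, 5.05 and 4.52 RPKM in control cells. FOSL2, an AP-1 subunit, had 9.43, 9.97 and 9.13 RPKM in shFoxA1 + WT cells and 60.6, 61.4 and 57.9 RPKM in shFoxA1 cells, against 10.1, 10.5 and 10.0 RPKM in control cells. The rescued libraries of SOX9 and RTN1 overlapped those of the control, and those of FOSL2 lay just below. FN1, which encodes fibronectin, had 77.0, 78.7 and 73.3 RPKM in shFoxA1 + WT cells and 355, 361 and 361 RPKM in shFoxA1 cells, against 67.1, 69.2 and 66.1 RPKM in control cells.

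Of the restored genes that had fallen, SLC45A3, which encodes the prostate-specific transporter prostein, had 162, 168 and 162 RPKM in shFoxA1 + WT cells and 42.3, 42.7 and 45.5 RPKM in shFoxA1 cells, against 154, 148 and 156 RPKM in control cells. Its difference from control, 0.10 ± 0.032 on the log2 scale (limma adjusted p = 0.024), turned to -0.01 and was not called after median-ratio scaling, and it was also not called without the second library of either group (log2 values 0.08 in each case). PCAT1, a long non-coding RNA of prostate cancer, had 19.3, 18.3 and 18.3 RPKM in shFoxA1 + WT cells and 7.18, 6.06 and 7.26 RPKM in shFoxA1 cells, against 19.8, 19.8 and 19.0 RPKM in control cells. SLC2A12, a glucose transporter, had 13.0, 13.1 and 12.9 RPKM in shFoxA1 + WT cells and 4.47, 4.13 and 4.14 RPKM in shFoxA1 cells, against 13.0, 14.1 and 14.8 RPKM in control cells. FAM198B had 29.8, 28.6 and 29.6 RPKM in shFoxA1 + WT cells and 5.84, 5.78 and 5.98 RPKM in shFoxA1 cells, against 27.3, 26.3 and 23.9 RPKM in control cells. In all 4 the knockdown libraries were far below and the rescued libraries near the control libraries.

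**Figure D4:**
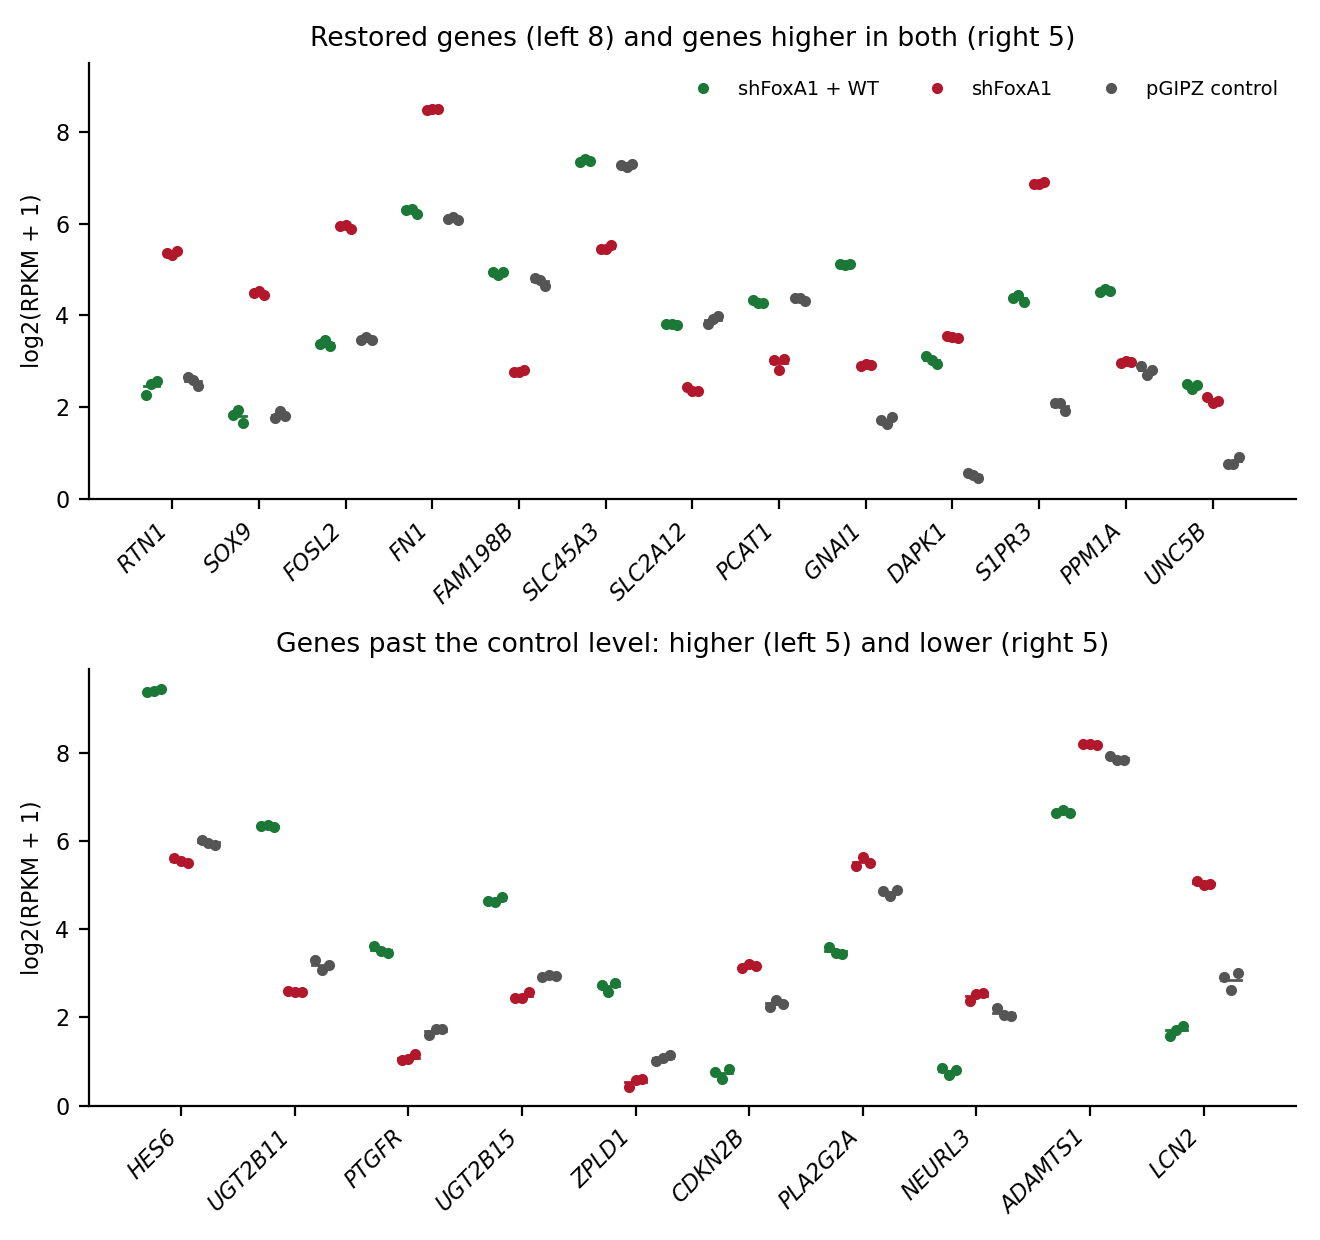
Values as log2(RPKM + 1) in each library of shFoxA1 + WT (green), shFoxA1 (red) and pGIPZ control (grey), with a line at the log2 of each group's mean plus 1. The top panel has the 8 restored genes named and the 5 highest genes not restored, and the bottom panel the 5 highest and 5 lowest genes past the control level; green and grey points coincide closely for SOX9, at 2.17 to 2.84 RPKM in shFoxA1 + WT cells, and are far apart for HES6, at 661 to 698 RPKM.

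Cell division genes were higher in the rescued cells than in the control. Of 56 tested genes of mitosis and the spindle checkpoint, 56 were higher and 0 lower in shFoxA1 + WT than in control cells, against 34.9% higher among all genes (limma, median 0.38; 49 higher and 0 lower after median-ratio scaling). In shFoxA1 cells 41 were lower and 0 higher, so 41 were past the control level. Of 56 DNA replication genes, 46 were higher and 0 lower (median 0.32; 36 higher and 0 lower after scaling). All of these differences were under 2-fold. NUF2, a kinetochore protein, had 16.7, 14.9 and 15.0 RPKM in shFoxA1 + WT cells and 7.73, 7.02 and 9.28 RPKM in shFoxA1 cells, against 10.9, 9.78 and 8.27 RPKM in control cells. NUF2 differed from control by 0.64 ± 0.1 on the log2 scale (limma adjusted p = 0.0003). CCNA2, which encodes cyclin A2, had 20.0, 20.2 and 18.4 RPKM in shFoxA1 + WT cells and 11.4, 11.7 and 10.8 RPKM in shFoxA1 cells, against 13.1, 11.5 and 12.6 RPKM in control cells. For CCNA2, shFoxA1 + WT minus control was 0.62 ± 0.052 on the log2 scale (limma adjusted p = 2.5e-06). TK1, the S-phase thymidine kinase, had 90.0, 92.3 and 85.1 RPKM in shFoxA1 + WT cells and 59.6, 61.7 and 55.7 RPKM in shFoxA1 cells, against 64.2, 59.7 and 59.7 RPKM in control cells. TK1 differed from control by 0.53 ± 0.043 on the log2 scale (limma adjusted p = 1.7e-06). For NUF2, CCNA2 and TK1 the knockdown libraries overlapped those of the control, and the rescued libraries lay above both. Over the lists, the medians of knockdown minus control were -0.24 for mitosis and -0.15 for DNA replication. By these medians the control stood between the knockdown and the rescued cells. In the separate experiment all 56 of each list were lower in shFOXA1 than in pLKO control cells, with medians of -2.88 and -1.76, against 45.1% lower among all genes tested there.

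p53 targets moved mostly downward, with 23 of 44 lower and 4 higher (median -0.20, and 29 lower and 3 higher after median-ratio scaling). Over all genes tested, 12.2% were lower and 34.9% higher. In shFoxA1 cells, 24 of the 44 were already lower and 7 higher than in control cells (median -0.21). Of all genes, 25.3% were lower and 24.8% higher there. In shFoxA1 + WT against shFoxA1 cells, 14 were higher and 14 lower (median -0.02, all genes 37.9% higher and 18.3% lower). In the separate experiment, 28 of 44 were higher and 6 lower in shFOXA1 than in pLKO control cells (median 0.38). Of all genes tested there, 25.2% were higher and 45.1% lower. CDKN1A, the gene of the CDK inhibitor p21, had 107, 109 and 106 RPKM in shFoxA1 + WT cells against 186, 190.1 and 188 RPKM in control cells. For CDKN1A, shFoxA1 + WT minus control was -0.80 ± 0.024 on the log2 scale (limma adjusted p = 3.2e-10). BBC3, the pro-apoptotic protein PUMA, had 6.50, 6.50 and 6.84 RPKM in shFoxA1 + WT cells against 11.99, 13.3 and 12.6 RPKM in control cells (log2 fold change -0.84 ± 0.059, limma adjusted p = 4.8e-07), and MDM2, the ubiquitin ligase of p53, 24.1, 23.6 and 23.6 RPKM in shFoxA1 + WT cells against 34.5, 32.5 and 32.1 RPKM in control cells. MDM2 differed from control by -0.46 ± 0.034 on the log2 scale (limma adjusted p = 7.8e-07). Among 32 CDK inhibitors, cyclins and MYC genes, 17 were higher and 4 lower (median 0.12; 7 higher and 8 lower after scaling), 2 of which, CDKN1C and CDKN2B, passed the minimum through 1 group only. CDKN1C, which encodes p57, had 1.24, 1.48 and 1.23 RPKM in shFoxA1 + WT cells against 0.278, 0.302 and 0.281 RPKM in control cells. For CDKN1C, shFoxA1 + WT minus control was 0.85 ± 0.083 on the log2 scale (limma adjusted p = 8.3e-06), a direction that the minimum fixed.

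Androgen-regulated genes went both ways, and were more often lower than higher. Of 48 tested androgen-induced genes, 19 were higher and 24 lower in shFoxA1 + WT than in control cells (median -0.11). Among all genes tested, 34.9% were higher and 12.2% lower. After median-ratio scaling, 14 of the 48 were higher and 26 lower (median -0.21). KLK3 had 862, 888 and 875 RPKM in shFoxA1 + WT cells and 1276, 1293 and 1269 RPKM in shFoxA1 cells, against 1444, 1428 and 1435 RPKM in control cells. For KLK3, shFoxA1 + WT minus control was -0.71 ± 0.016 on the log2 scale (limma adjusted p = 1.8e-11). The rescued cells thus had less KLK3 RNA than the knockdown (log2 difference -0.55 ± 0.016, limma adjusted p = 7.8e-11). ACPP, prostatic acid phosphatase, had 11.2, 12.2 and 12.6 RPKM in shFoxA1 + WT cells and 11.7, 11.2 and 12.1 RPKM in shFoxA1 cells, which overlapped, against 41.1, 39.2 and 40.5 RPKM in control cells. ACPP differed from control by -1.67 ± 0.061 on the log2 scale (limma adjusted p = 2e-09). TMPRSS2, an androgen-induced protease, had 200.2, 205 and 199 RPKM in shFoxA1 + WT cells and 146, 146 and 143 RPKM in shFoxA1 cells, against 269.5, 270.4 and 272 RPKM in control cells, between the other groups. For TMPRSS2, shFoxA1 + WT minus control was -0.42 ± 0.02 on the log2 scale (limma adjusted p = 1.3e-08). In the separate experiment TMPRSS2 was 0.18 ± 0.052 higher in shFOXA1 than in pLKO control cells on the log2 scale. Of the 48 androgen-induced genes, 14 were higher and 30 lower there, against 25.2% and 45.1% of all genes tested. TSC22D3, the glucocorticoid-induced leucine zipper, was at the other end with 29.4, 31.3 and 26.8 RPKM in shFoxA1 + WT cells and 7.13, 6.92 and 6.73 RPKM in shFoxA1 cells, against 11.2, 10.6 and 10.2 RPKM in control cells. TSC22D3 differed from control by 1.37 ± 0.056 on the log2 scale (limma adjusted p = 5.1e-09). TARP, a prostate transcript of the T-cell receptor gamma locus, had 31.3, 33.4 and 31.2 RPKM in shFoxA1 + WT cells against 12.7, 11.3 and 11.4 RPKM in control cells. For TARP, shFoxA1 + WT minus control was 1.37 ± 0.063 on the log2 scale (limma adjusted p = 1.3e-08). Of the 11 LNCaP and prostate luminal markers, 8 were lower and 3 higher.

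Luminal identity genes were more often lower than higher, with 21 of 34 lower, 9 higher and a median of -0.18 (22 lower and 5 higher after median-ratio scaling). Over all genes tested, 12.2% were lower and 34.9% higher. In shFoxA1 cells, 17 of the 34 were lower and 13 higher than in control cells (median -0.23, all genes 25.3% lower and 24.8% higher). In the separate experiment, 11 of 34 were lower and 18 higher in shFOXA1 than in pLKO control cells (median 0.40). Of all genes tested there, 45.1% were lower and 25.2% higher. ELF3, an epithelial ETS factor, had 20.1, 19.8 and 18.4 RPKM in shFoxA1 + WT cells and 39.4, 36.6 and 37.2 RPKM in shFoxA1 cells, against 48.5, 46.0 and 50.03 RPKM in control cells. For ELF3, shFoxA1 + WT minus control was -1.27 ± 0.042 on the log2 scale (limma adjusted p = 7.9e-10). TSPAN1, a tetraspanin of epithelial cells, had 17.9, 21.4 and 18.6 RPKM in shFoxA1 + WT cells against 52.8, 54.6 and 55.8 RPKM in control cells. TSPAN1 differed from control by -1.45 ± 0.071 on the log2 scale (limma adjusted p = 2e-08). Among forkhead factors and FOXA1 partners, 23 of 36 were higher and 0 lower (median 0.18), which became 14 higher and 6 lower after median-ratio scaling. FOXN3, a forkhead repressor, had 6.11, 6.39 and 6.05 RPKM in shFoxA1 + WT cells against 3.69, 3.12 and 3.51 RPKM in control cells, and TLE1, a Groucho corepressor, 15.5, 16.3 and 15.3 RPKM in shFoxA1 + WT cells against 12.1, 10.7 and 10.8 RPKM in control cells, with 47.1, 44.5 and 45.1 RPKM in the knockdown. Both were called (log2 fold changes 0.70 ± 0.055 and 0.46 ± 0.047, limma adjusted p = 1.3e-06 and 1.2e-05). In bulk libraries such as these, fewer cells of a kind and less RNA per cell cannot be told apart.

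The epithelial-mesenchymal list, in which 13 of 20 had risen in the knockdown (median 0.83), went both ways in the rescued cells, with 7 higher and 6 lower around a median of -0.0011 (5 higher and 6 lower after median-ratio scaling), against 34.9% higher and 12.2% lower among all genes. Of the 20, 3 were restored, 6 stayed higher and 2 lower as in the knockdown, 4 were past the control level, and 1 passed the minimum through 1 group only. A restored gene can also be counted as still higher, still lower or past the control level. TGFB3, a ligand of the TGF-beta family, had 1.17, 1.01 and 1.02 RPKM in shFoxA1 + WT cells and 20.6, 18.9 and 18.6 RPKM in shFoxA1 cells, against 0.259, 0.126 and 0.169 RPKM in control cells. For TGFB3, shFoxA1 + WT minus control was 0.80 ± 0.079 on the log2 scale (limma adjusted p = 9e-06). TGFB3 passed the minimum through shFoxA1 + WT libraries only, so it had to be higher. ID3, an inhibitor of differentiation induced by BMP signals, had 6.10, 5.20 and 5.83 RPKM in shFoxA1 + WT cells and 23.0, 23.4 and 23.3 RPKM in shFoxA1 cells, against 9.38, 7.88 and 9.71 RPKM in control cells. ID3 differed from control by -0.57 ± 0.078 on the log2 scale (limma adjusted p = 0.00012). VIM, which encodes vimentin, had 2.80, 2.47 and 2.58 RPKM in shFoxA1 + WT cells against 1.30, 1.60 and 0.821 RPKM in control cells. For VIM, shFoxA1 + WT minus control was 0.71 ± 0.11 on the log2 scale (limma adjusted p = 0.00028). Of 21 matrix, integrin and laminin genes, 2 were higher and 10 lower (median -0.09). The laminin chains differed: LAMC1 was -0.72 ± 0.03 and LAMB3 -0.62 ± 0.084, while LAMA1 was 0.70 ± 0.083 on the log2 scale, WT over control (limma adjusted p = 6.2e-09, 0.00011 and 4.1e-05). LAMA1, the 1 member of its list to do so, passed the minimum through shFoxA1 + WT libraries only and had to be higher.

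Among growth, stress and metabolic genes, the list of ATF4 targets, serine synthesis and amino acid supply had 31 of 46 higher and 5 lower (median 0.30, and 27 higher and 8 lower after scaling). Beside this and the next lists, 34.9% of all genes tested were higher and 12.2% lower. PSAT1, an enzyme of serine synthesis, had 84.4, 85.3 and 82.6 RPKM in shFoxA1 + WT cells and 42.5, 44.1 and 46.1 RPKM in shFoxA1 cells, against 57.1, 55.6 and 55.6 RPKM in control cells. PSAT1 differed from control by 0.58 ± 0.036 on the log2 scale (limma adjusted p = 2.1e-07). ASNS, asparagine synthetase, was 0.49 ± 0.049 and SLC7A5, an amino acid transporter, 0.55 ± 0.081 on the same scale (limma adjusted p = 1e-05 and 0.00019). Endoplasmic reticulum folding genes had 5 of 39 higher and 20 lower (median -0.13; 1 higher and 27 lower after scaling), with EIF2AK3, the stress kinase PERK, at -0.64 ± 0.044 (limma adjusted p = 3.8e-07). Heat shock and chaperone genes had 19 of 28 higher and 2 lower (median 0.21; 16 higher and 4 lower after scaling), among them the co-chaperone DNAJB4 with 12.3, 13.5 and 13.2 RPKM in shFoxA1 + WT cells against 4.44, 4.17 and 4.63 RPKM in control cells. For DNAJB4, shFoxA1 + WT minus control was 1.37 ± 0.1 on the log2 scale (limma adjusted p = 7e-07).

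Hypoxia and glycolysis genes had 25 of 38 higher and 6 lower (median 0.18, and 16 higher and 8 lower after scaling), and 1 passed the minimum through 1 group only. The shares over all genes tested, 34.9% higher and 12.2% lower, stand beside this and the next lists. NDRG1, a hypoxia- and androgen-induced gene, had 37.3, 36.4 and 34.9 RPKM in shFoxA1 + WT cells and 85.6, 87.9 and 87.3 RPKM in shFoxA1 cells, against 24.6, 23.6 and 24.1 RPKM in control cells. NDRG1 differed from control by 0.57 ± 0.032 on the log2 scale (limma adjusted p = 7.3e-08). Cholesterol synthesis genes had 6 of 30 higher and 11 lower (median -0.10; 2 higher and 16 lower after scaling). Fatty acid genes had 8 of 31 higher and 10 lower (median -0.05; 5 higher and 17 lower after scaling), with 1 passing the minimum through 1 group only. The elongases ELOVL7 and ELOVL5 lay apart at 0.76 ± 0.044 and -0.66 ± 0.024 (limma adjusted p = 7.7e-08 and 2e-09). Respiratory chain subunits had 28 of 74 higher and 8 lower (median 0.08) and ribosomal proteins 36 of 78 higher and 5 lower (median 0.09). Both of these medians turned negative after median-ratio scaling, to -0.02 with 10 higher and 17 lower subunits and to -0.02 with 10 higher and 20 lower ribosomal proteins, so no direction is given for them.

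Of the smaller and mixed lists, the androgen and xenobiotic conjugating enzymes had 6 of 13 higher and 3 lower (median 0.13), led by the UGT2B genes, and 2 of the 13 passed the minimum through 1 group only. Over all genes tested, 34.9% were higher and 12.2% lower, which stands beside each list here. Neuroendocrine and neuronal markers had 7 of 10 higher and 1 lower (median 0.29, and 5 higher and 1 lower after scaling), and 3 of the 10 passed the minimum through 1 group only. The lower one was SYT4, a synaptotagmin, with 105, 102 and 105 RPKM in shFoxA1 + WT cells and 264, 262 and 268 RPKM in shFoxA1 cells, against 187, 173 and 175 RPKM in control cells. For SYT4, shFoxA1 + WT minus control was -0.77 ± 0.029 on the log2 scale (limma adjusted p = 2.1e-09). Liver and gut genes had 5 of 7 higher and 1 lower (median 0.37, and 4 higher and 1 lower after scaling), and 2 of the 7 passed the minimum through 1 group only. Of these, UGT2B4, a liver enzyme of bile acid conjugation, had 4.06, 3.60 and 3.91 RPKM in shFoxA1 + WT cells against 0.184, 0.150 and 0.241 RPKM in control cells, so it had to be higher. The list also holds TFF3, a secreted trefoil peptide, with 12.9, 12.9 and 10.2 RPKM in shFoxA1 + WT cells and 1.41, 1.10 and 1.26 RPKM in shFoxA1 cells, against 5.26, 4.01 and 3.72 RPKM in control cells. TFF3 differed from control by 1.29 ± 0.11 on the log2 scale (limma adjusted p = 2.5e-06). Ubiquitin-specific proteases and partners of USP7 had 24 of 47 higher and 4 lower (median 0.16; 16 higher and 5 lower after scaling), and 1 passed the minimum through 1 group only. The proteasome-bound USP14 was highest, at 40.2, 38.1 and 42.6 RPKM in shFoxA1 + WT cells against 21.5, 20.7 and 21.6 RPKM in control cells. For USP14, shFoxA1 + WT minus control was 0.89 ± 0.043 on the log2 scale (limma adjusted p = 1.9e-08).

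Polycomb subunits and genes reported as repressed by EZH2 had 12 of 32 higher and 2 lower (median 0.12, and 8 higher and 7 lower after scaling). Among all genes tested, 34.9% were higher and 12.2% lower. The share higher was near that of all genes, so no direction is read from this list. The 2 lower members were not subunits but CDKN2B, the member whose direction the minimum fixed, and IGFBP3, a binding protein of insulin-like growth factors, which had 8.90, 8.10 and 8.56 RPKM in shFoxA1 + WT cells and 58.8, 58.6 and 61.2 RPKM in shFoxA1 cells, against 14.3, 17.5 and 15.2 RPKM in control cells. IGFBP3 differed from control by -0.80 ± 0.067 on the log2 scale (limma adjusted p = 2.2e-06). IGF-binding proteins, ERBB and growth factor receptors had 3 of 18 higher and 9 lower (median -0.19; 1 higher and 9 lower after scaling), with the receptor adaptor GRB10 higher, at 68.3, 68.4 and 67.6 RPKM in shFoxA1 + WT cells and 17.4, 18.2 and 17.9 RPKM in shFoxA1 cells, against 39.5, 36.5 and 36.6 RPKM in control cells. For GRB10, shFoxA1 + WT minus control was 0.84 ± 0.036 on the log2 scale (limma adjusted p = 6.9e-09). Replication-dependent histones had 3 of 32 higher and 3 lower (median -0.02; 2 higher and 6 lower after scaling), and their reads may be shared between close copies. Of the markers of other cell types, 6 were tested, 0 were higher and 2 lower (median -0.13), KRT15, a basal keratin, and CD68, a macrophage marker, at -1.04 ± 0.14 and -0.50 ± 0.079 on the log2 scale (limma adjusted p = 9.3e-05 and 0.00035). KRT15 passed the minimum through control libraries only and had to be lower.

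**Figure D5:**
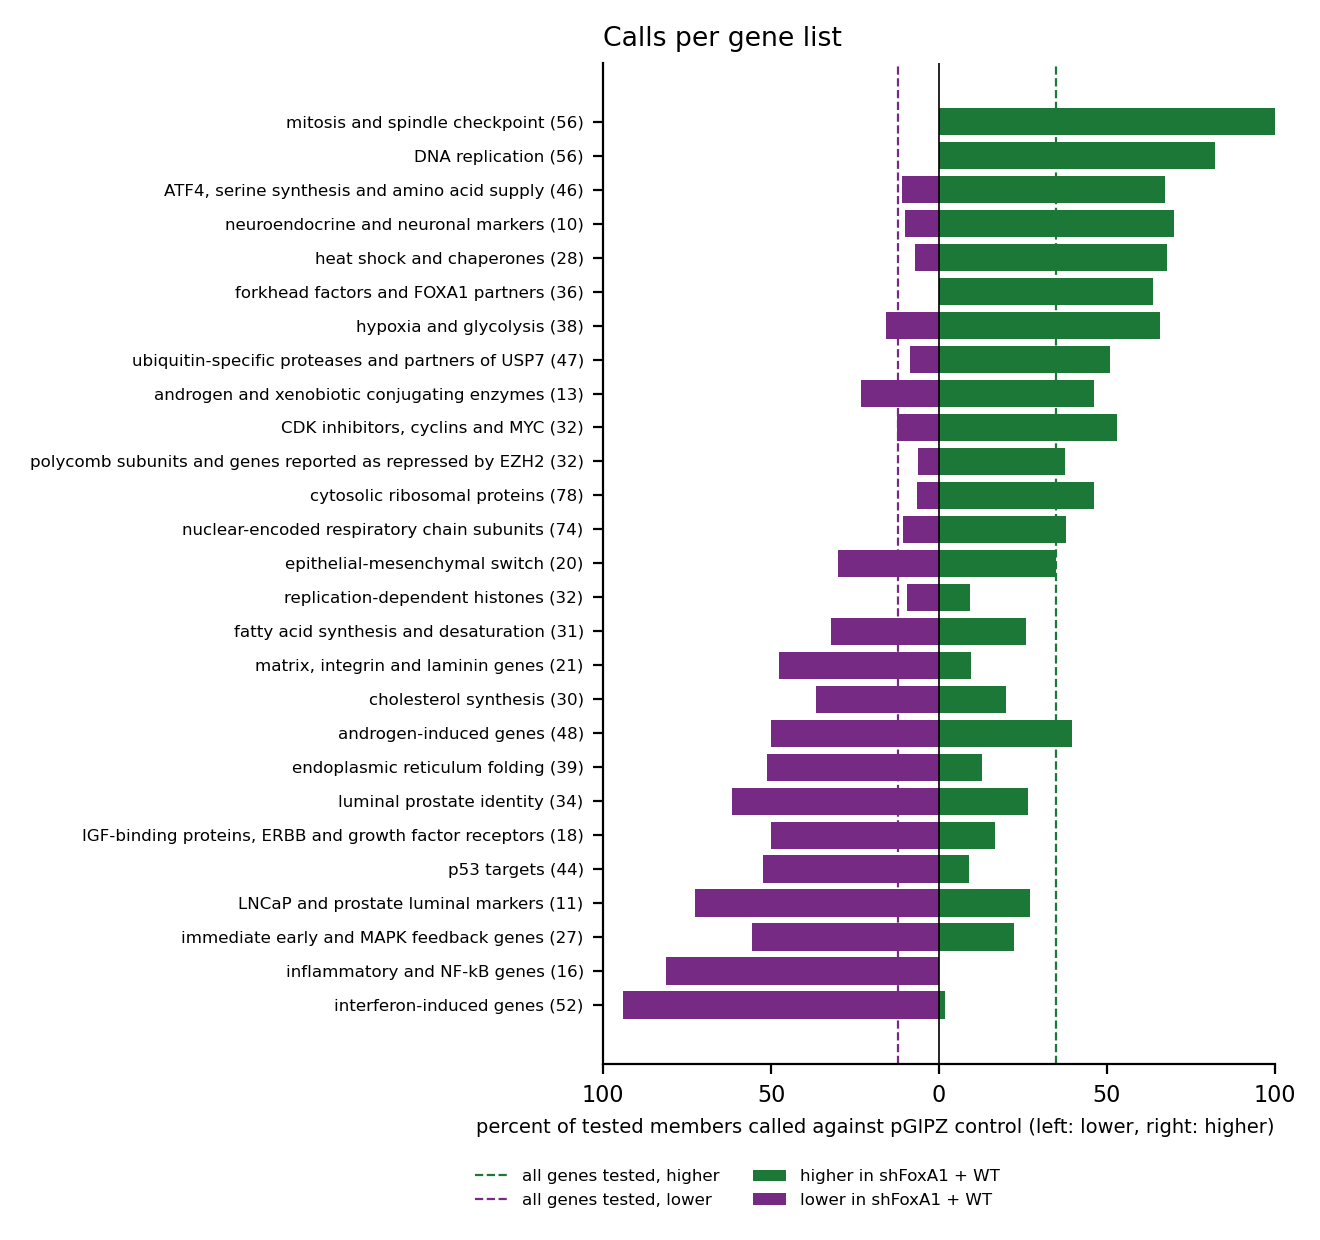
For each gene list with at least 10 tested members (number in brackets), the percent of members called higher (green, to the right) and lower (purple, to the left) in shFoxA1 + WT than in pGIPZ control cells, ordered by the list's median. Dashed lines give the percent over all genes tested, 34.9% higher and 12.2% lower; the mitosis list reaches 56 of 56 higher and the interferon list 49 of 52 lower.

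The separate FOXA1 knockdown gave a choice of genes that does not use the pGIPZ libraries. In shFOXA1 against pLKO control cells, 8808 of 12524 genes were called (70.3%), of which 536 rose and 1111 fell at least 2-fold. Of the 1097 fallen genes that were tested in the rescued cells, 622 were higher (56.7%, against 34.9% of all genes) and 94 lower (8.57%, against 12.2%) in shFoxA1 + WT than in pGIPZ control cells, with a median of 0.21 on the log2 scale. Of the 459 risen genes that were tested, 97 were higher (21.1%) and 169 lower (36.8%), with a median of -0.08. The same genes had medians of -0.23 (fallen) and 0.27 (risen) in shFoxA1 against pGIPZ control cells. Set against pGIPZ control cells, the rescued cells were thus on the far side of the control for the median gene of each choice, HES6 and UGT2B11 among the fallen and CDKN2B and PLA2G2A among the risen. The medians of all genes are shifted by the scaling as given above, and no test was made over these genes.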

How the data were processed

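RNA was sequenced from LNCaP cells. The authors deposited RPKM values for the pGIPZ experiment and FPKM values for the pLKO experiment; per the submitters' processing notes the aligner was STAR and the genome hg38. The counter, the annotation and any scaling beyond library total and gene length are not stated. The RPKM table had 26475 rows, 32 without values. Depth is known only relative to the first control library, so precision comes from replicates.

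Values were taken as log2(RPKM + 1), which understates folds near or under 1. Genes with at least 1 RPKM in at least 3 of 6 libraries were fitted in limma 3.58.1 (R 4.3.3), with the 12 pGIPZ libraries, a term per group, an intensity trend, moderated two-sided tests and Benjamini-Hochberg adjustment over 12061 genes; calls are at adjusted p under 0.05. The FPKM table was fitted alike with the 12 pLKO libraries. The fit was tested on simulated data. A permutation test of 3 against 3 cannot give a p under 0.1. Python 3.11.15 with NumPy 2.4.6, pandas 2.3.3 and matplotlib 3.10.9 did the rest.

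The members and lists were chosen with earlier results of these data known. Genes were named by a rule: FOXA1, KLK3, USP7, BUB3 and EZH2; the 8 highest and 8 lowest called genes with a mean of at least 1 and no overlap; the 5 highest and 5 lowest genes not restored and past the control level; the 4 restored genes with the largest rise and the 4 with the largest fall in the knockdown; and up to 3 called members per list. Part of the list members is given, and some genes that the rule names are not reported here. IFIT1, ISG15, BST2, IRF9, IRF7, B2M, HLA-B, IFITM2, MX1, TMPRSS2 and UGT2B17 stand outside the rule and were chosen after their values were seen. Alternatives were a pseudocount of 0.1, other filters, median-ratio scaling, a replicate block, a fit of the compared groups alone and leaving out each library.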

Additional observations from a re-analysis of the deposited data

How the results depend on the processing

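Of the 113 named genes, 1345 of 1356 values under the alternatives kept their direction and side of the threshold, 6 lost the call, 4 gained it and 1 turned. The turn was SLC45A3 under median-ratio scaling, with a log2 value of -0.0059 (limma adjusted p = 0.901). The calls lost under that scaling were BUB3, FAM198B, FN1 and IDI1. The count of called genes, 5686, was 4716 to 5716 under other settings and 4947 to 5289 with 1 library left out. Genes at least 2-fold different, 165, were 288 with a pseudocount of 0.1, which raises folds of low genes by construction, 158 to 173 under the rest and 163 to 169 with 1 library left out. Genes not restored, 2393, were 2243 to 2412 and, with 1 library left out, 2019 to 2223; genes past the control level, 1045, were 864 to 1043 and 817 to 938; restored genes, 57, were 56 to 80 and 49 to 55. The replicate numbers do not pair the libraries: same-numbered WT and control libraries had deviations from their group means that correlated at -0.025, -0.028 and -0.0021. With the replicate block 5526 genes were called, 164 at least 2-fold different, 2310 not restored, 972 past the control level and 56 restored, and all 113 named genes kept their side of the threshold. Without read totals, no counting interval or detection limit can be given for genes near 0.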
